A study of Homo sapiens with 12 samples.

Results

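The miR-17-92 cluster and its paralogs were followed through small RNA libraries of AC16 cells and of the exosomes those cells released. The 10 members were chosen by name: hsa-miR-17-5p, hsa-miR-18a-5p, hsa-miR-19a-3p, hsa-miR-19b-3p, hsa-miR-20a-5p, hsa-miR-25-3p, hsa-miR-92a-3p, hsa-miR-93-5p, hsa-miR-106a-5p and hsa-miR-106b-5p, written from here without the human prefix. They are 10 of the 2656 mature miRNA names listed for the cells, and the exosome tables listed all 10 as well. AC16 is an established line made by fusing human ventricular cells with a transformed fibroblast line, so it is a proliferating model of cardiomyocytes. The 12 libraries comprised 3 of whole cells and 3 of exosomes for each of the conditions named Con and Ang. The headers of the Ang tables read AngII, and the name, dose and time are not spelled out there or in the labels. The study asked which miRNAs differ in exosomes of hypertrophic cardiomyocytes. Nothing in the labels says that the numbered replicates were separate cultures, so every p-value measures only the spread between these libraries.

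A miRNA acts mainly through its seed, the short stretch near its 5′ end that pairs with target messenger RNAs and lowers their translation and stability. The miR-17-92 cluster is a single transcript, MIR17HG, cut into several hairpins. It is a known transcriptional target of MYC and E2F factors and is best known for promoting proliferation and survival, with CDKN1A and BCL2L11 among the textbook targets of its members. In mice, loss of the cluster disturbs heart and lung development. The chromosome 7 cluster lies within MCM7, a gene for a subunit of the replicative helicase, and the X chromosome cluster is the third copy of the family.

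The members fall into 4 seed groups, and several differ by so few bases that counts of single names depend on how reads were assigned. RefSeq (GRCh38.p14) held a mature sequence for all 10. They are shown 5′ to 3′ with bases 2 to 8, the seed, in capitals. The first 5 lines share the miR-17 seed, the next is the miR-18 seed, and the miR-19 and miR-92 seeds follow with 2 lines each.
miR-17-5p: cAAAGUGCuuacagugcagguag
miR-20a-5p: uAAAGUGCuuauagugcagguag
miR-106a-5p: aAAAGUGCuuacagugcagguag
miR-106b-5p: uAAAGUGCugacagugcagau
miR-93-5p: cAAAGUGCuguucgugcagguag
miR-18a-5p: uAAGGUGCaucuagugcagauag
miR-19a-3p: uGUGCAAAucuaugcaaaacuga
miR-19b-3p: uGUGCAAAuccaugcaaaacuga
miR-92a-3p: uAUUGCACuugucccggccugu
miR-25-3p: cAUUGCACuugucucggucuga

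With positions counted from 1 at the 5′ end and the first-named miRNA's base written first, miR-17-5p and miR-106a-5p differed only by C1A, and miR-17-5p and miR-20a-5p by C1U and C12U. The pair miR-19a-3p and miR-19b-3p differed only by U11C. Between miR-92a-3p and miR-25-3p there were 4 substitutions, U1C, C14U, C18U and U22A. No source used here gives the mismatches allowed in counting, so the split between miR-17-5p and miR-106a-5p and between miR-19a-3p and miR-19b-3p is uncertain.

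On GRCh38.p14, the mature strands of the 6 hairpins of MIR17HG span chr13:91350618-91351382 on the plus strand, within an exon of that non-coding gene in GENCODE release 29. The 3 hairpins for miR-106b, miR-93 and miR-25 span chr7:100093571-100094063 on the minus strand, in an intron of MCM7. The X cluster, 6 hairpins at chrX:134169382-134170266 on the minus strand, lies within an exon of the non-coding gene AC002407.1. miR-17-5p, miR-18a-5p, miR-19a-3p and miR-20a-5p have their only locus on chromosome 13, and miR-106a-5p has its only locus on X. miR-19b-3p and miR-92a-3p are made from identical mature sequences on both chromosome 13 and X, so their counts cannot be assigned to a cluster. Each hairpin can also give a strand from its other arm. Those opposite strands are shown in capitals in 3 hairpins in which that strand led the member in the cell libraries.
MIR17: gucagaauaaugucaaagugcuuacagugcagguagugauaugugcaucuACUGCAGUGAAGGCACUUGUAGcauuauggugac
MIR92A1: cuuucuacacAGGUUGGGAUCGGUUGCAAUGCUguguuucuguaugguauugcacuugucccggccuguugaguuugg
MIR106B: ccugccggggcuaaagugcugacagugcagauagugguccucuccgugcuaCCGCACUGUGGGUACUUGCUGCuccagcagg

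Cell libraries held between 413513 and 528844 unique molecular identifiers (UMIs, tags that count each captured molecule once), and exosome libraries between 697049 and 1029883. A count of 0 allows a level of up to 3 counts, or 5.67 to 7.25 CPM (a count scaled to the library's total) in cells and 2.91 to 4.30 CPM in exosomes. These limits and all intervals cover counting error only. Of the 7 heart and skeletal muscle miRNAs listed, the sum was 344 to 376 CPM in cells Con, mostly miR-208a-3p at 221 CPM, and the defining muscle miRNA miR-1-3p averaged 11.9 CPM. Exosomes Con replicate 1 stood apart from replicates 2 and 3, as the chi-square of its counts per degree of freedom was 6.57 and 10.6 against 1.91 between those 2. Cells Ang replicate 2 stood apart less, at 3.997 and 4.37 against 1.99.

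Levels of the members are given in CPM of library totals, not divided by length, since all are 21 to 23 bases long. Together the 10 members took 1.07% ± 0.0899 of UMIs in cells Con (SD, n = 3) and 1.12% ± 0.0264 in cells Ang. Their share of exosome UMIs was 0.115% ± 0.0443 in Con and 0.100% ± 0.0227 in Ang. The chromosome 7 cluster carried most of this, with 8049 ± 723 CPM in cells Con against 1000.1 ± 132 CPM for the 4 names found only on chromosome 13. The names with loci on both chromosome 13 and X added 1578 ± 93.4 CPM, and miR-106a-5p of the X cluster 28.6 ± 4.19 CPM.

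In cells Con the miR-17 seed group ran from the second most abundant member to the least. miR-93-5p, of the chromosome 7 cluster, had 4470, 3453 and 3875 CPM in the 3 cells Con libraries and 4338, 4380 and 4352 CPM in cells Ang. Its exosome levels were 240, 429 and 580 CPM in Con and 390, 436 and 281 CPM in Ang, so the compartments did not overlap while Con and Ang did. miR-20a-5p, of MIR17HG, had 758, 610 and 752 CPM in cells Con and 809, 774 and 792 CPM in cells Ang. In exosomes it stood at 7.77, 13.5 and 23.7 CPM in Con and 10.04, 20.9 and 11.7 CPM in Ang, from 7 to 23 UMIs a library. The other names of this seed were low in both compartments.

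miR-17-5p, which gives the cluster its name, had 28.4, 32.9 and 28.3 CPM in cells Con, from 12 to 17 UMIs, and its near twin miR-106a-5p had 24.6, 32.9 and 28.3 CPM. In cells Ang they had 20.4, 33.9 and 42.9 CPM and 18.3, 36.3 and 27.3 CPM. In exosomes neither exceeded 5 UMIs in any library. miR-106b-5p had 34.0, 13.6 and 18.9 CPM in cells Con and 38.7, 58.0 and 37.0 CPM in cells Ang. Its exosome counts were 2, 0 and 5 UMIs in Con and 1, 2 and 0 in Ang, at or near what a count of 0 allows.

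miR-18a-5p, alone in its seed group, had 60.5, 46.5 and 51.9 CPM in cells Con and 55.0, 53.2 and 42.9 CPM in cells Ang. Exosomes held 2, 1 and 1 UMIs of it in Con and 2, 7 and 3 in Ang. The miR-19 seed members were more abundant: miR-19b-3p had 575, 459 and 597 CPM in cells Con and 595, 653 and 727 CPM in cells Ang. miR-19a-3p had 255, 161 and 215 CPM in cells Con and 232, 167 and 232 CPM in cells Ang. Both were scarce in exosomes. miR-19b-3p gave 5, 9 and 15 UMIs in Con and 11, 9 and 7 in Ang, and miR-19a-3p 1, 3 and 5 in Con and 1, 2 and 1 in Ang.

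The miR-92 seed members were both measured well in exosomes, at 100 UMIs or more in each library. miR-25-3p had 4368, 4052 and 3863 CPM in cells Con and 3765, 3736 and 4140 CPM in cells Ang. Its exosome levels were 317, 517 and 615 CPM in Con and 419, 558 and 361 CPM in Ang. miR-92a-3p had 1065, 1012 and 1028 CPM in cells Con and 1107, 1139 and 1067 CPM in cells Ang. In exosomes it stood at 99.0, 224 and 306 CPM in Con and 143, 196 and 113 CPM in Ang. For both, the lowest and the highest of the exosome libraries were Con replicates 1 and 3.

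By mean level in cells Con the order was miR-25-3p, miR-93-5p, miR-92a-3p, miR-20a-5p, miR-19b-3p, miR-19a-3p, miR-18a-5p, miR-17-5p, miR-106a-5p and miR-106b-5p. The ranges of neighbours overlapped for miR-25-3p with miR-93-5p and among the last 3. In exosomes Con the gap between miR-92a-3p and miR-20a-5p was the only one between neighbours without overlap, and in exosomes Ang the gap between miR-93-5p and miR-92a-3p had none either. miR-93-5p, miR-25-3p and miR-92a-3p made up 85.1% ± 1.22 of the members' UMIs in cells Con and 96.8% ± 0.451 in exosomes Con (SD, n = 3). In Ang the shares were 83.7% ± 0.281 and 96.4% ± 0.176.

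**Figure D1:**
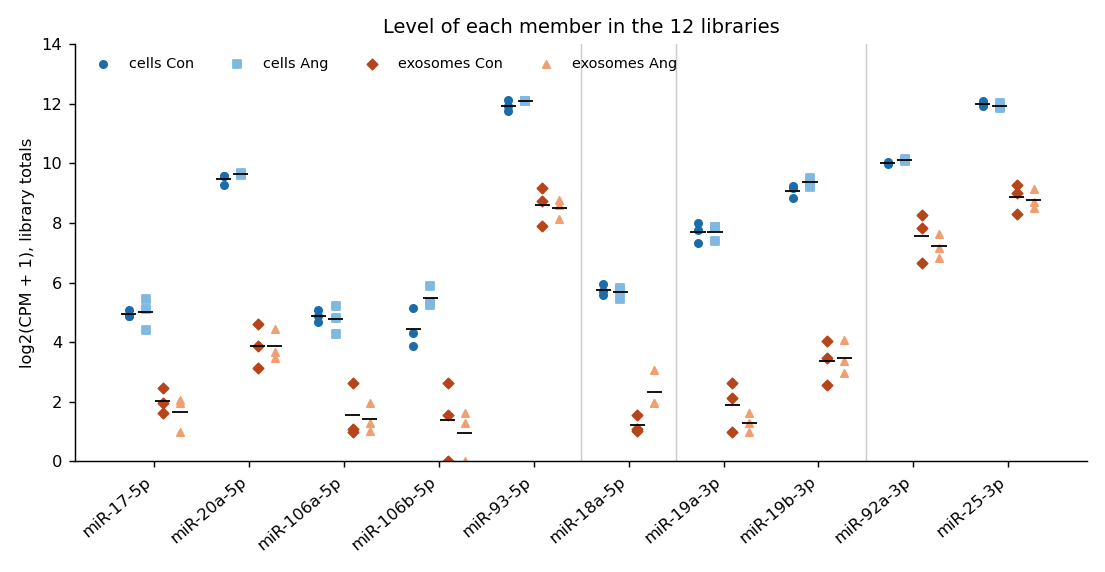
Level of each member in the 12 libraries, as log2(CPM + 1) on the y axis, with members on the x axis ordered by seed group (miR-17, miR-18, miR-19 and miR-92, divided by grey lines). Points are libraries and black bars are group means of 3; the 6 cell libraries lie above the 6 exosome libraries for each of the 10 members.

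Exosomes were then compared with cells within each condition. All 9 members tested in Con and all 10 tested in Ang were lower in exosomes. Their CPM did not overlap between compartments for any of these, as for 89.1% of all names tested in Con and 91.0% in Ang. The smallest differences were those of miR-92a-3p, and the largest those of miR-19a-3p, miR-19b-3p and miR-20a-5p. Each comparison was fitted with edgeR's quasi-likelihood test on TMM-scaled counts, with Benjamini-Hochberg adjustment over all names tested and a threshold of 0.05. Of all names tested, 44.2% were called lower in exosomes in Con and 45.1% in Ang, and 83.3% were called in either direction in each. Only miR-93-5p, miR-92a-3p and miR-25-3p passed the count filter on exosome libraries alone. The others passed only through their level in cells, which favours a lower value in exosomes, so the counts of 9 and 10 are no support for a shared difference. The median log2 difference of the tested members was -2.00 in Con and -1.91 in Ang, beside -0.27 and -0.31 over all names tested.

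Among the members with enough exosome counts, miR-92a-3p was lower by a log2 difference of -0.80 ± 0.284 (SE) in Con (edgeR adjusted p = 0.0234) and by -0.98 ± 0.151 in Ang (adjusted p = 1.41e-05). In Con the call was lost when any of the 3 cells Con replicates was left out, with adjusted p from 0.0622 to 0.0767, and without exosomes Con replicate 2 (adjusted p = 0.0698). Without exosomes Con replicate 1 the difference was -0.45 and without replicate 3 it was -1.26, and both kept the call (adjusted p = 0.00170 and 0.000266). miR-25-3p was lower by -1.57 ± 0.185 in Con and -1.23 ± 0.120 in Ang (adjusted p = 1.49e-05 and 5.19e-08). miR-93-5p, which shares a transcript with miR-25-3p, was lower by -1.73 ± 0.242 and -1.68 ± 0.120 (adjusted p = 5.86e-05 and 7.69e-10).

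The remaining members had larger or less precise differences. miR-20a-5p was lower by -4.04 ± 0.245 in Con and -3.87 ± 0.196 in Ang on the log2 TMM scale, miR-19b-3p by -4.23 ± 0.251 and -4.12 ± 0.220, and miR-19a-3p by -4.52 ± 0.376 and -5.17 ± 0.364. miR-18a-5p was lower by -3.65 ± 0.390 in Con and -1.58 ± 0.373 in Ang. The near twins miR-17-5p and miR-106a-5p were lower by -1.72 ± 0.347 and -2.00 ± 0.476 in Con and by -1.92 ± 0.519 and -1.90 ± 0.532 in Ang. miR-106b-5p did not pass the filter in Con and was lower by -3.29 ± 0.573 in Ang, on 3 UMIs in all 3 exosome libraries. These are given as sizes only, since these members passed the filter through cells alone.

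**Figure D2:**
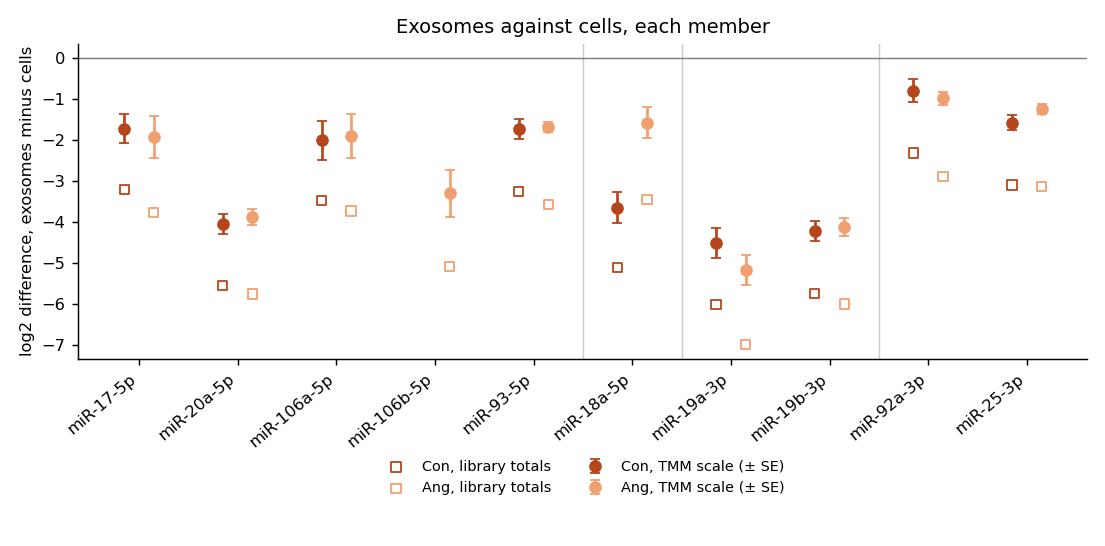
Log2 difference of exosomes minus cells (y axis) for each member (x axis, same order and dividers), dark for Con and light for Ang. Filled circles are edgeR estimates on the TMM scale with SE bars, and open squares are the same fit scaled to library totals, which lies lower for every member; miR-92a-3p lies nearest to 0 on both scales, and miR-106b-5p was not tested in Con.

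The size of these differences depends on the scale. Scaling by library totals moved the median of all names by -1.52 in Con and -1.89 in Ang on the log2 scale, and every member was lower on that scale too. As a ratio of summed counts over summed totals, cells exceeded exosomes in Con by 5.004-fold for miR-92a-3p (95% counting interval 4.55 to 5.51), by 8.60-fold for miR-25-3p (8.11 to 9.12) and by 9.56-fold for miR-93-5p (8.98 to 10.2). The ratio was 47.4-fold for miR-20a-5p (34.9 to 65.8) and 53.9-fold for miR-19b-3p (37.2 to 81.0). For miR-19a-3p, with 9 exosome UMIs, it was 67.5-fold (35.1 to 149.1), for miR-18a-5p with 4 UMIs 38.4-fold (14.4 to 144.3), and for miR-17-5p with 9 UMIs 9.62-fold (4.63 to 22.4). RNA of cells and of exosomes was extracted with different kits, so compartment and kit cannot be told apart.

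Ratios within a library are free of the scaling, so members of a cluster were compared with each other. For 15 pairs chosen after the data were seen, the log2 ratio of counts (0.5 added to each) was set against compartment with an exact two-sided permutation test over 6 cell and 6 exosome libraries, Con and Ang together. The smallest p it allows is 0.00216, and adjustment was over the 15 pairs. Since the test was chosen with the shift already seen, its p-values describe these libraries and are no independent support. No pairs of other names or strands were tested, so how often such ratios separate the compartments is not known. Single names did not overlap between compartments for 89.1% of those tested in Con and 91.0% in Ang. In cells, miR-20a-5p and miR-19b-3p stood at a log2 ratio of -0.52 ± 0.112 and -0.84 ± 0.190 to miR-92a-3p (SD, n = 6 libraries). In exosomes the ratios were -3.57 ± 0.310 and -4.05 ± 0.473, lower by -3.05 and -3.20, and the 6 cell libraries did not overlap with the 6 exosome libraries (adjusted p = 0.00406 by the exact permutation test). Against miR-92a-3p, miR-19a-3p shifted by -3.68 and miR-18a-5p by -1.496, with the same adjusted p by the exact test and no overlap of the compartments. The shift of miR-18a-5p was -2.41 within Con and -0.58 within Ang, while that of miR-19a-3p was -3.58 and -3.79. miR-17-5p against miR-92a-3p differed by -0.68, with overlap and an adjusted p of 0.0749 by the exact test. It passed without exosomes Con replicate 1 (-0.86, adjusted p = 0.0295 by the exact test) or without cells Ang replicate 1 (-0.80, adjusted p = 0.0455).

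On chromosome 7 the pairs differed in size. miR-93-5p against miR-25-3p stood at a log2 ratio of 0.05 ± 0.166 in cells and -0.26 ± 0.138 in exosomes (SD, n = 6 libraries), a difference of -0.31 with overlapping libraries (exact permutation adjusted p = 0.0180). For miR-106b-5p against miR-25-3p the difference was -1.09, with overlap and an exact adjusted p of 0.128. It passed only without cells Con replicate 2 (-1.31, adjusted p = 0.04995, exact permutation test). Exosome counts of miR-106b-5p were 0 to 5 UMIs.

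The 2 strands of a hairpin also shifted between compartments, most clearly in MIR92A1. miR-92a-1-5p, the strand in capitals in that hairpin, had 2545, 2725 and 2795 CPM in cells Con and 2090, 2179 and 2484 CPM in cells Ang, above miR-92a-3p in 6 of 6 cell libraries. In exosomes it had 62.1, 70.9 and 87.5 CPM in Con and 56.0, 66.8 and 52.8 CPM in Ang, below miR-92a-3p in 6 of 6. Over all cell libraries it gave 7137 UMIs against 3082 for miR-92a-3p, a ratio of 2.32, and over all exosome libraries 369 against 1002, where miR-92a-3p led by 2.72-fold. The log2 ratio of miR-92a-3p to miR-92a-1-5p was -1.20 ± 0.230 in cells and 1.35 ± 0.415 in exosomes (SD, n = 6), a difference of 2.55 (exact permutation adjusted p = 0.00406). It was 2.75 within Con and 2.35 within Ang. miR-92a-3p also comes from the X chromosome hairpin MIR92A2, whose own opposite strand, miR-92a-2-5p, gave 20 UMIs in cells Con and 20 in exosomes Con.

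Other hairpins moved in either direction. miR-17-3p, the strand in capitals in MIR17, outnumbered miR-17-5p in 6 of 6 cell libraries, with 189 against 90 UMIs. In exosomes miR-17-5p led in 5 of 6, on 15 against 6 UMIs, a log2 shift of 2.28 in its favour (exact permutation adjusted p = 0.00406). Against its opposite strand miR-19b-1-5p, miR-19b-3p led 1729 to 145 in cells and 56 to 49 in exosomes, a shift of -3.47, and miR-25-3p led miR-25-5p 11554 to 212 and 2577 to 103, a shift of -1.13 (both with an exact adjusted p of 0.00406). miR-106b-3p outnumbered miR-106b-5p in 6 of 6 libraries of each compartment, with 500 against 95 UMIs in cells and 150 against 10 in exosomes.

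Calls on 3 further hairpins were weaker. miR-106b-5p over miR-106b-3p shifted by -1.55 (exact permutation adjusted p = 0.0390), which was lost in 8 of the 12 tests that left a library out, and was -0.71 within Con and -2.39 within Ang. miR-20a-5p over miR-20a-3p shifted by -1.04 (exact adjusted p = 0.0413), which was lost in 9 of those 12, and was -1.70 within Con and -0.38 within Ang. For miR-18a-5p over miR-18a-3p the shift was -1.17, with an exact adjusted p of 0.0595, and it passed with a pseudocount of 1 and without cells Con replicate 2 or exosomes Ang replicate 2 (adjusted p = 0.0384, 0.04995 and 0.00722). miR-93-5p over miR-93-3p differed by -0.14, less than its spread (exact adjusted p = 0.576). The opposite strands of MIR19A and MIR106A were not among the names listed for exosomes and were taken as 0. No ratio was formed for them.

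**Figure D3:**
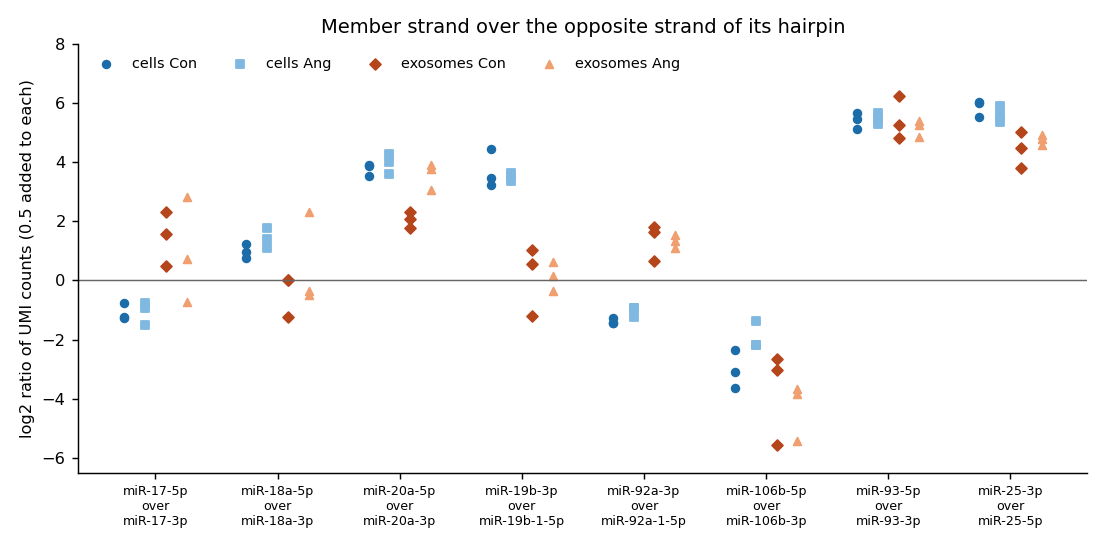
Log2 ratio of the UMI counts of a member and of the opposite strand of its hairpin (y axis, 0.5 added to each count) for 8 hairpins (x axis). Each point is a library; the points of miR-92a-3p over miR-92a-1-5p lie below 0 in the 6 cell libraries and above 0 in the 6 exosome libraries, while those of miR-93-5p over miR-93-3p overlap.

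Ang was compared with Con in exosomes for the 4 members that passed the count filter, and none of the 4 was called. miR-93-5p differed by 0.00 ± 0.257 on the log2 scale (SE), miR-25-3p by 0.06 ± 0.210, miR-20a-5p by 0.13 ± 0.408 and miR-92a-3p by -0.29 ± 0.330, with edgeR adjusted p between 0.558 and 0.996. In this comparison 34.0% of all names tested were called in either direction. None of the 4 passed at an unadjusted p under 0.05 or with limma-voom, and none of the 3 for which DESeq2 gave an adjusted p, all but miR-20a-5p, passed there. The ranges of Con and Ang overlapped for all 4, while 52.4% of all tested names did not overlap. The other 6 members did not pass the count filter in this comparison, with at most 15 UMIs in any exosome library.

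These estimates depended on single libraries. Without Con replicate 1, the library that stood apart, miR-92a-3p was lower in Ang by -0.62 (edgeR adjusted p = 0.0198) and was the only member called. Without Con replicate 3 its difference was 0.06 (adjusted p = 0.897). With all members summed, the 3 Con libraries held 677, 1203 and 1558 CPM and the 3 Ang libraries 988, 1236 and 781 CPM, so Con had both the lowest and the highest library.

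Markers of other cell types varied over the same exosome libraries. The 7 blood cell markers, of which 1 was at 0 in some Con library and 3 in some Ang library, summed to 552, 1194 and 1279 CPM in Con and 346, 643 and 476 CPM in Ang. The red cell marker miR-451a had 9.71, 92.3 and 128 CPM in Con and 0, 23.0 and 6.85 CPM in Ang, and the liver marker miR-122-5p 8.74, 123 and 156 CPM and 4.30, 18.8 and 10.8 CPM. The other liver marker, miR-885-5p, had 21.4, 23.6 and 18.5 CPM in Con and 28.7, 40.7 and 30.3 CPM in Ang, and was higher in Ang by 0.82 ± 0.214 on the log2 scale (edgeR adjusted p = 0.0140). Called lower in Ang were miR-122-5p (-2.81 ± 0.835), miR-451a (-2.63 ± 0.878), miR-142-3p (-1.69 ± 0.586) and miR-223-3p (-0.45 ± 0.154), with edgeR adjusted p from 0.0262 to 0.0494. All but miR-223-3p of these failed the count filter on Ang libraries alone. The other blood and endothelial markers tested were not called. Both endothelial markers summed to 130, 434 and 473 CPM in Con and 84.6, 233 and 96.8 CPM in Ang. Within Con the sum of the members, the blood and endothelial sums, miR-451a and miR-122-5p were lowest in replicate 1 and highest in replicate 3. That order did not hold for miR-885-5p, nor for the blood markers miR-142-3p, with 14.6, 70.9 and 62.8 CPM, and miR-150-5p, with 19.4, 19.1 and 25.7 CPM. In Ang replicate 1 the members were at 988 CPM with the blood markers at their lowest. The source of these marker miRNAs and their part in the members' levels were not tested, and marker levels in exosomes do not count cells.

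**Figure D4:**
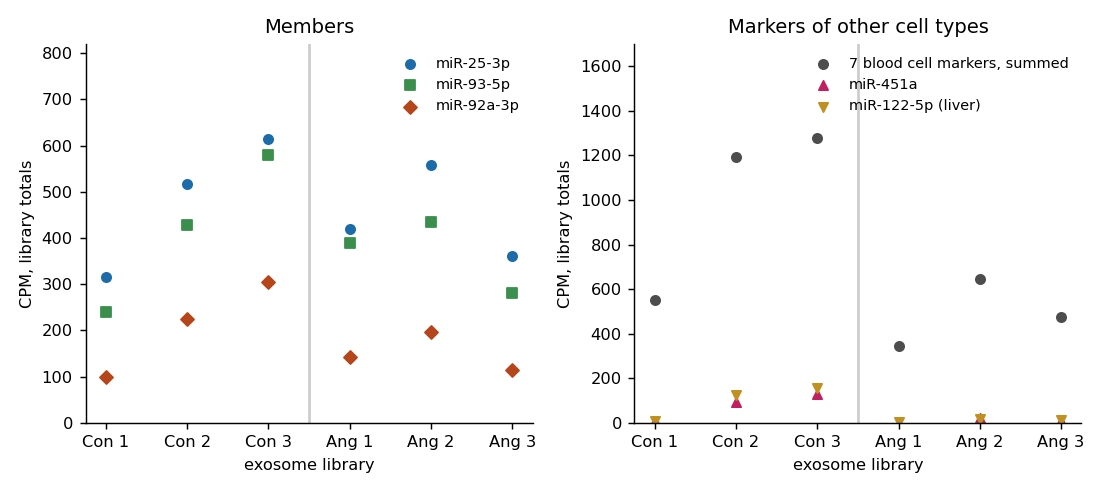
CPM of library totals (y axes) in the 6 exosome libraries (x axes) for the 3 members with the most exosome counts (left) and for markers of other cell types (right). Each point is a library; within Con the values plotted in both panels are lowest in replicate 1 and highest in replicate 3, while all 3 Ang libraries lie below Con replicates 2 and 3 for the blood marker sum but not for miR-25-3p.

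In cells all 10 members were tested and none was called between Ang and Con, where 6.56% of all names tested were called. The median log2 difference of the members was 0.09, beside 0.02 over all names. At an unadjusted p under 0.05 there were 2 members, miR-106b-5p and miR-19b-3p. The share of all names under that unadjusted threshold was not computed, so this count is not read as a result. limma-voom called none of the 10, and DESeq2 called none of the 6 for which it gave an adjusted p, which left out miR-106b-5p. The CPM of Con and Ang did not overlap for 3 of the 10 members, miR-106b-5p, miR-20a-5p and miR-92a-3p, and for 22.4% of all tested names.

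miR-106b-5p had the largest difference, 0.94 ± 0.341 on the log2 scale (SE, edgeR adjusted p = 0.123), from 33 UMIs in cells Con and 62 in cells Ang. Its adjusted p ranged from 0.0593 to 0.379 over the alternatives. miR-19b-3p differed by 0.26 ± 0.115 (adjusted p = 0.216), miR-20a-5p by 0.15 ± 0.098, miR-93-5p by 0.13 ± 0.084 and miR-92a-3p by 0.08 ± 0.079. miR-25-3p differed by -0.09 ± 0.069, miR-17-5p by 0.10 ± 0.307, miR-106a-5p by -0.10 ± 0.317, miR-18a-5p by -0.10 ± 0.221 and miR-19a-3p by -0.01 ± 0.170. Cells Ang replicate 2 carried 6895 CPM of the blood markers against 2041 to 2374 CPM in the other cell libraries. Its endothelial markers summed to 4665 CPM against 517 to 674 CPM, and its liver markers to 213 CPM against 19.4 to 33.1 CPM. The members made up 1.10% of the UMIs of that library, and between 0.987% and 1.16% in the other cell libraries. The part of RNA from these cell types in the members' levels was not tested.

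**Figure D5:**
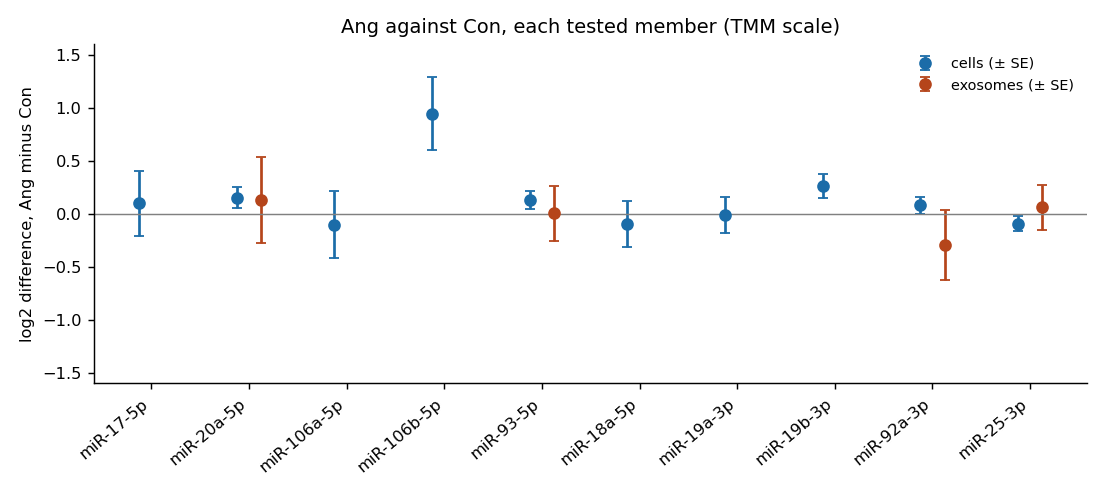
Log2 difference of Ang minus Con (y axis) in cells (blue) and exosomes (red) for each member tested (x axis, ordered by seed), as edgeR estimates on the TMM scale with SE bars. None was past the threshold; miR-106b-5p in cells lies highest at 0.94, and exosome estimates have the wider bars for the 4 members tested in both.

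The Ang difference in exosomes minus that in cells was tested on all 12 libraries. None of the 10 members passed, while 15.1% of all names tested did. miR-18a-5p came nearest, at 2.02 ± 0.674 on the log2 scale (SE, edgeR adjusted p = 0.0557). No other member had an unadjusted p under 0.05, and the share of all names under it was not computed. It rested on 4 exosome UMIs in Con and 12 in Ang. With RLE size factors it passed at 2.11 (adjusted p = 0.0390), and without exosomes Ang replicate 3 at 2.26 (adjusted p = 0.0479). limma-voom called no member, and DESeq2, which gave an adjusted p for 6 of the 10, called none of those 6. For miR-18a-5p DESeq2 gave a log2 difference of 2.19 and no adjusted p. The values of the others ran from -1.70 ± 1.20 for miR-106b-5p to 0.28 ± 0.240 for miR-25-3p.

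Among the 18 companion strands, the 3 other guide strands of the X cluster and 15 opposite strands, few were abundant. In cells 8 were tested between Ang and Con and 1 was called: miR-92a-1-5p was lower in Ang by -0.27 ± 0.0745 on the log2 scale (edgeR adjusted p = 0.0392), with no overlap between the groups. The call was lost with library totals (adjusted p = 0.0632), with all 12 libraries in the fit (0.0514) and when any cells Con replicate or cells Ang replicate 1 or 2 was left out (0.0552 to 0.170). None of the 4 tested in exosomes was called between Ang and Con. Between compartments, 6 of 9 tested were lower in exosomes in Con and 1 higher, and 6 of 7 were lower in Ang, beside 44.2% and 45.1% lower over all names. Of those lower, 4 of 6 in each condition passed the filter only through cells, so the counts are no support. miR-92a-1-5p was lower by -3.68 ± 0.119 in Con and -3.37 ± 0.124 in Ang (adjusted p = 3.47e-10 and 7.97e-14), and miR-106b-3p by -1.21 ± 0.187 and -0.74 ± 0.197 (adjusted p = 0.000125 and 0.00249). miR-363-5p of the X cluster was the higher name, at 2.19 ± 0.282, with 22.3, 24.8 and 28.8 CPM in exosomes Con against 17.02, 19.4 and 9.43 CPM in cells Con. It passed the count filter on exosome libraries alone but not on cell libraries alone, so this call is no support either. The other guide strands of that cluster, miR-18b-5p, miR-20b-5p and miR-363-3p, averaged 8.09, 9.81 and 7.32 CPM in cells Con and were not tested between Ang and Con.

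Outside the clusters, 6 listed names share a member's seed. miR-519d-3p, of the primate placental cluster, carries the miR-17 seed and is shown beside miR-17-5p to mark where the sequences part after the seed.
miR-17-5p: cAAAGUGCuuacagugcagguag
miR-519d-3p: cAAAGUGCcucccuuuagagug
It stood at 1130 ± 21.8 CPM in cells Con and 588 ± 3.05 CPM in exosomes Con (SD, n = 3). On the log2 TMM scale it was instead higher in exosomes in Con, by 0.57 ± 0.072 (SE, edgeR adjusted p = 2.53e-05). In Ang that difference was -0.02 ± 0.098 (adjusted p = 0.884). In exosomes Ang it was at 308 ± 24.9 CPM, lower than in Con by -0.77 ± 0.0840 on the log2 scale (edgeR adjusted p = 8.12e-05), and in cells Ang at 1158 ± 55.5 CPM. miR-92b-3p, which shares the miR-92 seed, stood at 158 ± 10.3 CPM in cells Con and 65.0 ± 14.1 CPM in exosomes Con, and at 172 ± 21.6 and 70.8 ± 7.32 CPM in Ang. Its exosome against cell difference was 0.23 ± 0.164 in Con (adjusted p = 0.206) and 0.61 ± 0.161 in Ang (adjusted p = 0.00219) on the TMM scale, while its CPM of library totals was lower in exosomes. miR-32-5p and miR-4735-3p were lower in exosomes in both conditions, at -4.99 and -2.52 in Con, where they averaged 0.324 and 4.19 CPM in exosomes. Both passed the count filter only through their level in cells, so these are sizes only. miR-367-3p and miR-526b-3p were too low to test.

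The names whose levels moved most like the members' over the libraries were found from log2 levels centred within each compartment. Candidates were 395 names with a mean of at least 100 CPM in both compartments. Against the mean of the 10 members, Pearson's r over the 12 libraries was 0.93 for miR-107 and 0.92 for miR-155-5p. It was 0.91 for miR-103a-3p and miR-125a-5p and 0.90 for miR-30a-5p. Members themselves, which are part of that mean, ran from 0.12 for miR-17-5p to 0.94 for miR-93-5p. The points share libraries and depth, so these values describe and are given without a test. miR-107 and miR-103a-3p were lower in exosomes in Con by -2.95 ± 0.235 and -2.96 ± 0.250 on the log2 TMM scale, and none of the 5 was called between Ang and Con in either compartment.

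GGAG and GGCU, short motifs that have been linked to miRNA sorting into exosomes, were searched in the mature strand only. GGAG occurred in 15.7% and GGCU in 12.6% of the 2367 listed names with a RefSeq sequence, and 0 of the 10 members held either. Of 17 companions searched, miR-25-5p held GGAG and none held GGCU. GC content of the members ran from 34.8% in miR-19a-3p to 54.5% in miR-92a-3p, beside a median of 52.2% over all names with a sequence. The 3 members with the highest GC content, miR-92a-3p, miR-93-5p and miR-25-3p, were the 3 with the most counts in exosomes and also in cells.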

How the data were processed

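Each deposited file gives 1 library's counts of UMIs for each mature miRNA, in whole numbers and not normalized, per the file headers. Per the labels' protocols, cell RNA came from a miRNeasy Micro kit, exosome RNA from an exoRNeasy Maxi kit and libraries from a QIAseq miRNA kit. The tool cutadapt and build GRCh38 are named, per the submitters' processing notes; the aligner, annotation, mismatches and counter are not given in the sources. The exosome tables list 76 fewer names, none above 20 UMIs in a cell library, taken as 0.

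Pairs of groups were fitted to their 6 libraries, and the interaction to all 12, with edgeR 4.0.16 in R 4.3.3 (filterByExpr, TMM, quasi-likelihood test with the robust option off, two-sided, Benjamini-Hochberg adjustment over all names tested, threshold 0.05). The test was checked on simulated counts in which a minority of names changed, as many raised as lowered. The compartment comparisons, where most names were called, are unlike that setting, so the check does not bear on them. Alternatives were RLE size factors, library totals, DESeq2 1.42.0, limma-voom (limma 3.58.1), a replicate block, no count filter, a filter at a mean of 10 CPM, leaving out each library, and all 12 libraries in each fit. Pair ratios used exact permutation tests (SciPy 1.17.1), with a pseudocount of 1 and each library left out as alternatives, chosen after seeing the data. Counting intervals are exact 95% intervals of a ratio of summed counts.

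Named miRNAs were all 10 members, companion strands past the threshold or with at least 100 CPM, names sharing a seed, and the 5 names most like the members. The members and lists were chosen with earlier results of these data known. Mature and hairpin sequences are RefSeq's on GRCh38.p14, which matched 2367 names. No label says that a replicate number marks a shared culture, so no pairing was used. Deviations of samples with the same replicate number correlated at -0.0445 to 0.113 over 1820 names. The highest value was that of replicate 2 of cells Ang and exosomes Ang.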

Additional observations from a re-analysis of the deposited data

Results flagged for a closer look

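The Ang difference of miR-519d-3p, which shares its seed with miR-17-5p but lies outside the 3 clusters, differed between compartments by a test of that difference. Its Ang difference in exosomes minus that in cells was -0.64 ± 0.110 on the log2 scale (SE, edgeR interaction test, adjusted p = 0.000461). It fell from 588 ± 3.05 to 308 ± 24.9 CPM in exosomes (SD, n = 3), while its cell levels were 1130 ± 21.8 and 1158 ± 55.5 CPM.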

How the results depend on the processing

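Between compartments the members kept their direction under every alternative run. The count of members called was 8 to 10 in Con and 10 in Ang, and the call on miR-92a-3p in Con was the only member call lost, in 4 of its 14 alternatives. Between Ang and Con the only member called under an alternative was miR-92a-3p in exosomes, without exosomes Con replicate 1, and values near 0 changed sign. With library totals, which moved the median of all names by -0.16 in exosomes and by -0.32 in the interaction, the exosome differences were -0.035 for miR-20a-5p, -0.18 for miR-93-5p and -0.11 for miR-25-3p. With no count filter they were -0.072 for miR-93-5p and -0.011 for miR-25-3p. In cells miR-19a-3p stood at 0.011 with library totals and 0.014 with limma-voom. In the interaction, library totals gave -0.20 for miR-20a-5p, -0.26 for miR-106a-5p, -0.27 for miR-19b-3p, -0.036 for miR-25-3p and -0.071 for miR-92a-1-5p. There miR-93-5p stood at 0.12 with RLE size factors, 0.12 with DESeq2, 0.058 with limma-voom and 0.025 with no count filter. RLE size factors called 1 member, miR-18a-5p, in the interaction. The cause of these changes was not tested.

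With the replicate block, the interaction was 0.0098 for miR-93-5p and -0.0010 for miR-106a-5p. The block called 398 names in exosomes against 408 without it and 132 against 107 in cells. It called 1398 against 1425 between compartments in Con, 1345 against 1355 in Ang, and 252 against 278 in the interaction. It changed no member's call.

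With each library left out in turn, members called were 0 to 1 between Ang and Con in exosomes and 0 to 1 in the interaction, and names called between Ang and Con in cells were 38 to 97 (38 without cells Con replicate 2 or 3, 70 without cells Ang replicate 1). The exosome differences ran from -0.21 to 0.61 for miR-20a-5p, -0.26 to 0.29 for miR-93-5p, -0.62 to 0.062 for miR-92a-3p and -0.15 to 0.25 for miR-25-3p. In cells they ran from -0.19 to 0.36 for miR-17-5p, -0.34 to 0.12 for miR-106a-5p, -0.20 to 0.023 for miR-18a-5p and -0.18 to 0.17 for miR-19a-3p. The interaction ran from -0.62 to 0.12 for miR-17-5p, -0.30 to 0.61 for miR-20a-5p, -0.58 to 1.16 for miR-106a-5p, -0.32 to 0.30 for miR-93-5p, -0.34 to 0.49 for miR-19b-3p and -0.62 to 0.13 for miR-92a-3p. TMM scaling moved mean CPM by more than 1 SD in 35 of 40 cases. Without exosomes Con replicate 3, mean CPM in that group was 1.05 in place of 2.41 for miR-106a-5p and 0.971 in place of 2.36 for miR-106b-5p. Without exosomes Ang replicate 2 it was 0.717 in place of 1.17 for miR-106b-5p and 2.90 in place of 4.37 for miR-18a-5p. Depth limits the precision of 6 members in exosomes, where they had at most 15 UMIs a library.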
